A study of Homo sapiens with 6 samples.

Results

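The genes examined here were 7 chemokines that tumour cells can transcribe, namely CCL2, CXCL1, CXCL2, CXCL8, CXCL16, CCL20 and CCL28. All 7 had a row in the count and FPKM tables, out of 30327 genes in the count table. They were chosen by starting from the fall of CCL2 in the si_GRB2 libraries, so the change of CCL2 is given as a description, with no test. The cells were SK-BR-3, a breast cancer line that overexpresses the receptor HER2, and their poly(A) RNA was sequenced in 6 strand-specific libraries. In 3 of them the cells had received a control siRNA with no target (si_NC), and in the other 3 an siRNA against GRB2 (si_GRB2), the adaptor protein that couples receptor tyrosine kinases to RAS. For the treated group, titles and genotype labels speak of overexpressed GRB2 and the descriptions of si_GRB2, and the groups follow the descriptions. All 6 libraries are of a single line grown without immune or stromal cells, and the time of RNA collection for sequencing is not given in the sources used here.

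Chemokines are small secreted proteins that draw leukocytes along a gradient by binding G protein-coupled receptors. The CC and CXC families are named for the spacing of their first cysteines, and each ligand acts on a limited set of receptors: CCL2 on CCR2 of monocytes, CCL20 on CCR6 of dendritic cells and some T cells, CCL28 on CCR10 and CCR3, CXCL16 on CXCR6, and CXCL1, CXCL2 and CXCL8 on CXCR2 of neutrophils. Many of these genes are switched on by NF-κB and AP-1 after inflammatory stimuli, and their mRNAs often carry AU-rich elements in the 3′ UTR that speed decay.

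The RefSeq promoter table (GRCh38.p14) held 5 of the 7 members, CXCL1, CXCL2, CXCL8, CCL20 and CCL28. The 150 bases before the start site are shown for the 4 members of the inflammatory group among these, since they show which motif letters are shared and how close CXCL1 and CXCL2 are. Capitals mark matches to the NF-κB consensus, to the AP-1 site TGANTCA and to the TATA box TATAAA, searched on both strands. They lie at chr4:73869243-73869392 on the plus strand (CXCL1), chr4:74099196-74099345 on the minus strand (CXCL2), chr4:73740419-73740568 on the plus strand (CXCL8) and chr2:227813692-227813841 on the plus strand (CCL20).
CXCL1: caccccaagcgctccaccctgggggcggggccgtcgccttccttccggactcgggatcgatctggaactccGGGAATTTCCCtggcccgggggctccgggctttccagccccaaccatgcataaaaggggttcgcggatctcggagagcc
CXCL2: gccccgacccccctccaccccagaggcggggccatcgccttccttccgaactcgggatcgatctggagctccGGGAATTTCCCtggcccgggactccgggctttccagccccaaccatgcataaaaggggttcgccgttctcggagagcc
CXCL8: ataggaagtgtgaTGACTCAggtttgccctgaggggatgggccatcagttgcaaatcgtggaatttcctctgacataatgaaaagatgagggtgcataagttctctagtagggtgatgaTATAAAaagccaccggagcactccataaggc
CCL20: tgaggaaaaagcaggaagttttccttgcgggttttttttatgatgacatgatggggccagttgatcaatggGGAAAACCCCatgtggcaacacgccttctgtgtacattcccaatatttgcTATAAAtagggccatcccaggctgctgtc

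The NF-κB consensus, taken as GGG[AG]NN[CT][CT]CC with N for any base, was found in CXCL1 (bases −79 to −69 from the start site), CXCL2 (−78 to −68) and CCL20 (−79 to −70). Only full matches counted, so a near match such as tggaatttcc in CXCL8 was left unmarked. In CXCL1 and CXCL2 the stretch holds an overlapping pair of matches, on opposite strands. Of 35116 promoters in the table, 11.3% held this consensus, 7.71% the AP-1 site and 11.5% the TATA box. The AP-1 site was found in CXCL8, and the TATA box in CXCL8 and CCL20. The GC box GGGCGG, held by 45.0% of all promoters, was found in CXCL1 and CCL28. The shares of all promoters come from a longer window than the stretches shown, the same window in which the members were searched. They are not compared with the stretches. The CXCL1 and CXCL2 stretches were identical at 134 of 151 aligned positions (88.7%), against 45.1% for CXCL1 with CXCL8 and 42.5% for CXCL1 with CCL20. These matches are letters in a window, and no binding was measured.

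Reads counted on genes ran from 24810378 to 28532480 per library, and 15801 genes had enough reads to test. Among these, the adjusted p was under 0.05 for 30.6% of the genes, with 15.5% lower and 15.2% higher in si_GRB2. The libraries of the 2 groups did not overlap for 42.3% of the genes. Genes that changed by more than 1.5-fold in either direction at an adjusted p under 0.01 were called differentially expressed genes (DEGs). They made up 2.52% of the tested genes, and 1.69% were DEGs that were lower. GRB2 itself had 3474, 3301 and 3525 reads in si_NC and 699, 773 and 749 in si_GRB2, so the direction of the descriptions held in every library. Of 8 luminal and SK-BR-3 markers 7 were tested, ERBB2 and the keratins KRT8 and KRT18 among the most abundant, 6 of the 7 were lower and ERBB2 was higher, and the list summed to 19589 to 20056 CPM (counts scaled to library size after TMM normalization) in si_NC and 16368 to 17047 in si_GRB2. The eighth, CDH1, which SK-BR-3 is known to lack, had 9 reads in all.

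CCL2, the monocyte attractant, was lower in all 3 si_GRB2 libraries, with no overlap between the groups. It lies on the plus strand of chromosome 17 (ENSG00000108691.9, GRCh38 34255274 to 34257208). It had 345, 360 and 351 reads in the si_NC libraries and 111, 115 and 100 in the si_GRB2 libraries. As levels these were 12.3, 14.1 and 12.5 CPM and 4.41, 4.19 and 3.95 CPM. The lowest control was thus well above the highest si_GRB2 library, and the spread within each group was small beside the gap. The log2 fold change was −1.63 (standard error 0.10, 95% interval −1.84 to −1.42), or 0.323 of the si_NC level. Ordered from the largest fall, CCL2 stood 8th of 15801 tested genes, which is a description, since the fall chose the gene. In bulk RNA, fewer cells that transcribe a gene and less of its mRNA per cell cannot be told apart. No exon of CCL2 overlaps another annotated gene, and none of the 50-base windows of its transcript occurs in another gene.

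CCL20, the ligand of CCR6, was lower in all 3 si_GRB2 libraries, on few reads. The gene lies on the plus strand of chromosome 2 (ENSG00000115009.13, GRCh38 227805739 to 227817564). It had 19, 29 and 23 reads in si_NC and 6, 11 and 5 in si_GRB2. The levels were 0.677, 1.14 and 0.820 CPM and 0.238, 0.401 and 0.198 CPM, and the groups did not overlap. The means were 0.878 ± 0.236 and 0.279 ± 0.107 CPM (SD, n = 3 each), a log2 fold change of −1.62 (standard error 0.36). CCL20 reached the limit for testing, 0.377 CPM in 3 libraries, only through si_NC, where it was higher. Letting genes in this way favours those that differ, so the edgeR adjusted p of CCL20 within the filtered genes, 0.00284, is not read as support. In the fit without that filter, CCL20 fell by 1.62 on the log2 scale with an edgeR adjusted p of 0.00011. DESeq2, run on the filtered genes, gave it no adjusted p (NA, at an unadjusted p of 0.00219).

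CCL28, an epithelial chemokine of mucosal and glandular tissue, was lower in 2 of 3 si_GRB2 libraries. Its gene is on chromosome 5, minus strand (ENSG00000151882.11, GRCh38 43376645 to 43412391). It had 36, 43 and 48 reads in si_NC against 14, 38 and 14 in si_GRB2. The levels were 1.28, 1.69 and 1.71 CPM and 0.556, 1.38 and 0.553 CPM, so that si_GRB2 replicate 2 lay within the control range. The log2 fold change was −0.88 (standard error 0.31, edgeR adjusted p = 0.0391). This call was lost in DESeq2 (adjusted p = 0.067) and when si_NC replicate 2 (0.117), si_NC replicate 3 (0.0797), si_GRB2 replicate 1 (0.163) or si_GRB2 replicate 3 (0.174) was left out. Without si_GRB2 replicate 2 the log2 fold change was −1.48 (adjusted p = 0.00206).

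CXCL16, made as a membrane-bound chemokine that also takes up oxidized lipoprotein and is shed by ADAM10 and ADAM17, differed little. Its gene is on chromosome 17, minus strand (ENSG00000161921.17, GRCh38 4733533 to 4739928), far from CCL2. It had 269, 255 and 267 reads in si_NC and 209, 223 and 217 in si_GRB2. The levels were 9.59, 10.01 and 9.52 CPM and 8.31, 8.12 and 8.57 CPM, and every si_GRB2 library was below every control. The log2 fold change of −0.22 (standard error 0.09) had an edgeR adjusted p of 0.0624 and did not pass. Its 95% interval ran from −0.40 to −0.04, which bounds a fall at 0.758 of the si_NC level. MED11 and ZMYND15 overlap 2.72% and 3.44% of its exonic bases on the opposite strand, and whether the counting used strand is not given in the sources used here.

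**Figure D1:**
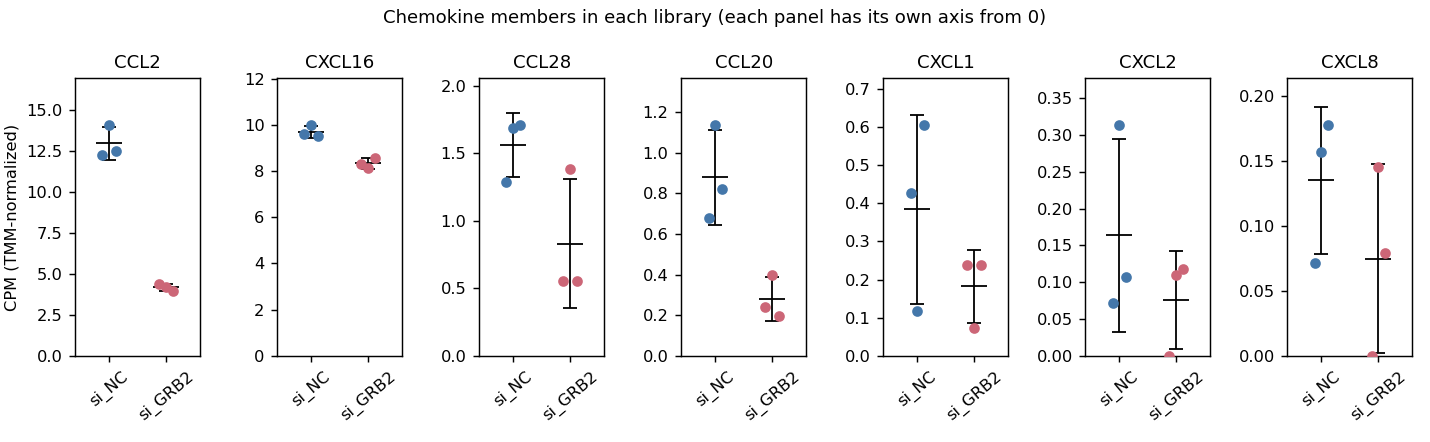
CPM (TMM-normalized, linear axis from 0 in each panel) of the 7 members in each library, with points for libraries and bars for the mean ± SD of 3. The points of CCL2, CXCL16 and CCL20 do not overlap between si_NC and si_GRB2, whereas those of CCL28, CXCL1, CXCL2 and CXCL8 do.

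CXCL1, CXCL2 and CXCL8, the neutrophil attractants, had too few reads to test. CXCL1 (ENSG00000163739.5) had 12, 3 and 17 reads in si_NC and 6, 2 and 6 in si_GRB2. CXCL2 (ENSG00000081041.9) had 2, 8 and 3 reads against 0, 3 and 3. CXCL8 (ENSG00000169429.11, interleukin 8) had 2, 4 and 5 reads against 0, 4 and 2. The groups overlapped for all 3 genes, and 8 of the 13 control reads of CXCL2 came from si_NC replicate 2. Summed over libraries and scaled by total reads, si_GRB2 had 0.474 of the si_NC level for CXCL1 (exact 95% interval 0.234 to 0.914), 0.50 for CXCL2 (0.156 to 1.41) and 0.591 for CXCL8 (0.180 to 1.74). These intervals cover counting error only. That of CXCL1 lay below 1 although its libraries overlapped, and a change of CXCL2 or CXCL8 was not detectable at this depth. The fit that kept all genes gave CXCL1 an edgeR adjusted p of 0.137. The 3 genes lie in a cluster on chromosome 4 (GRCh38 73740519 to 73743716 for CXCL8, 73869393 to 73871308 for CXCL1 and 74097040 to 74099196 for CXCL2). Of the 50-base windows of their transcripts, 5.33% for CXCL1 and 10.1% for CXCL2 occur in a paralogue, so uniquely mapped reads could be missing there.

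**Figure D2:**
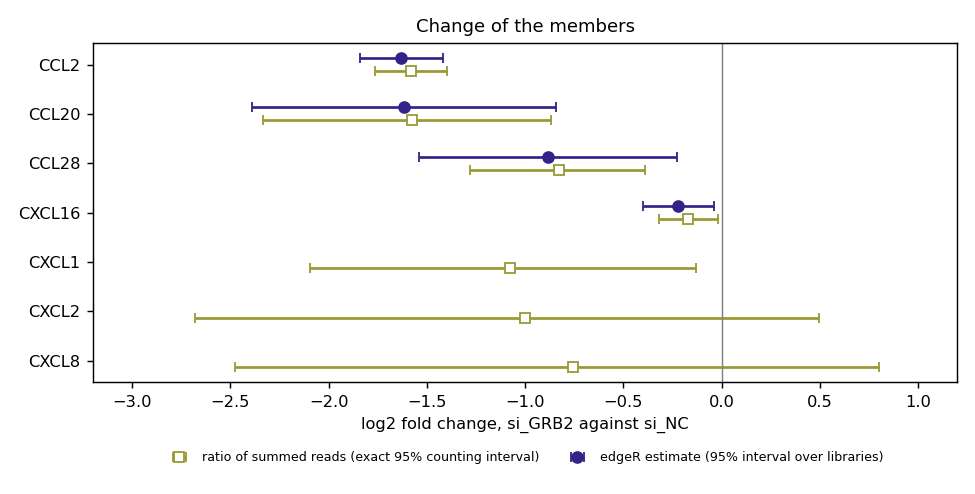
Log2 fold change of si_GRB2 against si_NC for each member. Circles are edgeR estimates with 95% intervals over libraries, for the 4 tested members, and squares are ratios of summed reads with exact 95% counting intervals. The intervals of CXCL2 and CXCL8 span 0, and those of the other members lie below it.

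Of the 6 members other than CCL2, 3 passed the filter on low counts. At an adjusted p of 0.05, CCL28 and CCL20 were lower and CXCL16 did not pass. Since CCL20 was let in only through the group where it was high, no count over these genes is set against the share of all tested genes. The median log2 fold change of all tested genes, against which the medians of the lists are set, was 0.00.

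Levels between genes were compared in FPKM, the deposited measure that accounts for length. In si_NC the order of the members was CCL2, CXCL16, CCL20, CCL28, CXCL1, CXCL2 and CXCL8, with means of 5.25 ± 0.420, 2.79 ± 0.0981, 0.443 ± 0.121, 0.280 ± 0.0529, 0.227 ± 0.150, 0.0933 ± 0.0757 and 0.05 ± 0.0265 FPKM (SD, n = 3). The libraries of CCL2, CXCL16, CCL20 and CCL28 did not overlap with one another, while CXCL1 overlapped CCL20, CCL28 and CXCL2, and CXCL2 overlapped CXCL8. CCL2 stood at the 65.6th percentile of tested genes by level and CXCL16 at the 51.6th, so both were genes of middling level, and the other members lay below the 20th. CPM per kilobase of annotated exon gave the same order of the members.

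In si_GRB2 the first 2 places were exchanged, with CXCL16 at 2.47 ± 0.0954 FPKM and CCL2 at 1.74 ± 0.0693 FPKM (SD, n = 3 each). The lowest CXCL16 library was at 2.38 FPKM and the highest CCL2 library at 1.78 FPKM. CCL2 made up 49.2% to 51.3% of the reads of the 7 members in the si_NC libraries and 28.8% to 32.1% in the si_GRB2 libraries. The share of CXCL16 went from 36.3% to 39.3% up to 56.3% to 62.5%. A share moves whenever another gene of the sum does, and the reads of CXCL16 itself were slightly fewer in si_GRB2.

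**Figure D3:**
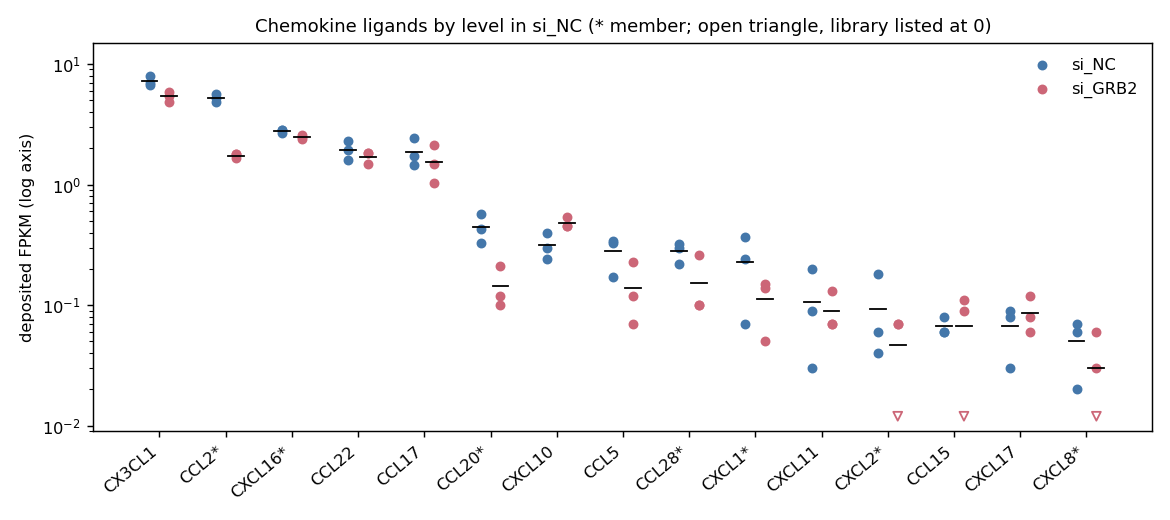
Deposited FPKM (log axis) of the 15 chemokine ligands with the highest si_NC means, in each library, with a bar for the mean of each group and an open triangle for a library listed at 0. CX3CL1 is highest in both groups, and CCL2 lies above CXCL16 in si_NC and below it in si_GRB2.

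Of 38 other chemokine ligands listed, 19 had counts, and 5 of them were tested. The others on the list were not analysed here. CX3CL1 (fractalkine, a membrane-bound ligand of CX3CR1) was the most abundant chemokine mRNA, at 7.15 ± 0.662 FPKM in si_NC and 5.39 ± 0.543 FPKM in si_GRB2 (SD, n = 3 each). Its levels were 50.8, 51.9 and 56.4 CPM against 35.8, 41.6 and 39.0 CPM, with no overlap. It fell by 0.45 on the log2 scale (standard error 0.055, edgeR adjusted p = 1.14e-05), short of the 1.5-fold DEG limit.

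The other 4 tested ligands did not pass, and are described after their values were seen. The neighbours of CX3CL1 on chromosome 16, CCL22 and CCL17, both ligands of CCR4, had edgeR adjusted p-values of 0.193 and 0.413. Their log2 fold changes were −0.23 and −0.33, and their groups overlapped. CXCL10, a ligand of CXCR3 induced by interferon, had 10, 15 and 12 reads in si_NC and 20, 17 and 16 in si_GRB2, with no overlap, and its log2 fold change of 0.58 had an adjusted p of 0.201. CCL5 had 9, 16 and 17 reads against 11, 6 and 3, a log2 fold change of −0.99 with an edgeR adjusted p of 0.119. It also did not pass in 12 of 13 alternative fits. The exception was the fit without si_GRB2 replicate 1, the si_GRB2 library with most reads of CCL5 (−1.57, edgeR adjusted p = 0.0446). Summed over the 26 ligands, the level was 84.6 to 93.0 CPM in si_NC and 57.7 to 65.0 CPM in si_GRB2. The sum holds CCL2, whose fall chose the genes examined here, and CX3CL1, the most abundant ligand, which also fell. It is given as a description and is not read as a fall of chemokines in general.

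Receptors are the other side of the pathway, and in SK-BR-3 few had reads. Of 22 chemokine receptor genes with counts, 9 were tested in edgeR and 4 were lower, with a median log2 fold change of −0.14. That median is the value of CXCR5, which shares 91.1% of its exonic bases with BCL9L on the opposite strand. The use of strand in the counting is not given, so the reads of CXCR5, and with them the median, are uncertain. Among the 4 is CXCR4, which passed the filter on low counts only through si_NC, where it was higher. The count is therefore not read against the 15.5% of all tested genes that were lower. No receptor was higher in edgeR or DESeq2 at an adjusted p under 0.05, where 15.2% of all tested genes were higher in edgeR. With 9 tested genes this absence says little. None was higher at an unadjusted p under 0.05 either, a limit for which the share of all tested genes was not computed. DESeq2 called 2 as lower. CX3CR1, the receptor of CX3CL1, fell from 8.39 ± 0.730 to 5.55 ± 0.757 CPM (SD, n = 3 each), a log2 fold change of −0.60 (standard error 0.12, edgeR adjusted p = 0.000991), and was a DEG. ACKR2, a decoy receptor that takes up CCL2 and other CC chemokines without signalling, fell from 22.4 ± 0.471 to 18.2 ± 1.17 CPM, by 0.30 on the log2 scale (edgeR adjusted p = 0.000978). ACKR2 shares 9.78% of its exonic bases with a long noncoding RNA on the same strand, so its reads are uncertain.

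CXCR6, the receptor of CXCL16, had 1.39, 1.53 and 1.46 CPM in si_NC and 1.03, 0.838 and 0.909 CPM in si_GRB2. Its log2 fold change of −0.66 (edgeR adjusted p = 0.0331) lost its call when any of 5 libraries was left out, all but si_GRB2 replicate 1, with adjusted p between 0.0506 and 0.112. It lies within FYCO1, on the opposite strand, with no shared exonic base. CXCR4, the receptor of CXCL12, had a log2 fold change of −1.06 at an edgeR adjusted p of 0.0499 on 64 reads, was noted after its values were seen, and passed the filter on low counts only through si_NC, where it was higher. Without that filter its adjusted p was 0.0702, and it passed in no fit with a library left out (0.0624 to 0.178). CCR2, the receptor of CCL2, was at 3.03 ± 0.453 and 3.34 ± 0.225 CPM (SD, n = 3 each), with a log2 fold change of 0.14 (edgeR adjusted p = 0.562). CCR10 and CCR6, receptors of CCL28 and CCL20, had 4 reads and 1 read in all.

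Proteases and proteoglycans set how much chemokine is shed, trimmed or held at the surface. Of 15 such genes 10 were tested, 3 were lower and 1 was higher, where 15.5% of all tested genes were lower and 15.2% higher. GPC1 (glypican 1, a heparan sulfate proteoglycan) fell from 25.3 ± 1.48 to 17.7 ± 0.663 CPM (SD, n = 3 each), a log2 fold change of −0.52 (edgeR adjusted p = 6.39e-06). SDC1 (syndecan 1) fell by 0.19 on the log2 scale (edgeR adjusted p = 0.000104) from 383 CPM. The calls of MMP9, which clips several chemokines, and CTSL, a cathepsin, were weaker. MMP9 had a log2 fold change of −0.55 (edgeR adjusted p = 0.0386) that was lost without any one of 5 libraries, all but si_GRB2 replicate 1 (0.0559 to 0.171). CTSL had a log2 fold change of 0.09 (edgeR adjusted p = 0.0302) that was lost without si_NC replicate 1 or 3 or si_GRB2 replicate 2 or 3 (0.104 to 0.129), and in the fit with a block on replicate number (0.0525).

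Of 18 tested receptors and adaptors that pass inflammatory signals to chemokine genes, 5 were higher and 13 did not pass, where 15.2% of all tested genes were higher, with a median log2 fold change of 0.01. None passed as lower in edgeR or DESeq2, and at an unadjusted p under 0.05 there was 1 in edgeR and 0 in DESeq2. IL1RAP, the accessory chain of the interleukin 1 receptor, rose from 18.6 ± 0.402 to 23.0 ± 1.02 CPM (SD, n = 3 each), by 0.30 on the log2 scale (edgeR adjusted p = 0.000593). TNFRSF1A, the main receptor of TNF, rose by 0.25 (edgeR adjusted p = 0.000221) and TRAF6, a ubiquitin ligase downstream of MYD88, by 0.28 (edgeR adjusted p = 0.00314). TRAF3, which restrains noncanonical NF-κB, rose by 0.22 (edgeR adjusted p = 0.0163), a call lost without si_NC replicate 1 (0.107) or si_GRB2 replicate 2 (0.0876). The fifth was MYD88 itself, at 0.10 (edgeR adjusted p = 0.00713), named after its values were seen.

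Among transcription factors that bind chemokine promoters and their inhibitors, all 23 were tested, 8 were lower and 1 was higher, with a median log2 fold change of −0.08, where 15.5% of all tested genes were lower and 15.2% higher. IRF1, an interferon-induced activator, was the only DEG and fell from 28.0 ± 1.55 to 18.6 ± 0.640 CPM (SD, n = 3 each), by 0.59 on the log2 scale (edgeR adjusted p = 9.27e-07). RELB, an NF-κB subunit, fell by 0.37 (edgeR adjusted p = 0.000593) and SP1, which binds GC boxes, by 0.33 (edgeR adjusted p = 3.91e-06). STAT3, the factor downstream of interleukin 6 family receptors, rose by 0.33 (edgeR adjusted p = 1.27e-07) from 361 CPM. These are mRNA levels and say nothing of the activity of the factors.

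AU-rich elements were looked for in the 3′ UTRs of the members (GENCODE 44). The short letters ATTTA occurred 10 times in CXCL2, 9 times in CXCL8, 7 times in CCL28, 6 times in CXCL1, 3 times in CCL20 and 1 time each in CCL2 and CXCL16. The nonamer ATTTATTTA occurred 4 times in CXCL2, 2 times in CXCL1 and 1 time each in CXCL8 and CCL28, and not in CCL2, CCL20 or CXCL16. Of tested coding genes with a 3′ UTR, 7.48% held the nonamer. The first nonamer of CXCL1, CXCL2 and CXCL8 is shown in capitals, within 29 bases starting at UTR base 136, 136 and 655, to show the match between the paralogues CXCL1 and CXCL2 beside CXCL8.
CXCL1 UTR: gaagtcttctATTTATTTAtttattcatt
CXCL2 UTR: gaagtcttctATTTATTTAtttatttatt
CXCL8 UTR: ttatttatgtATTTATTTAagcatcaaat

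Of 16 factors that control the decay of such mRNAs, all tested, 3 were lower and 1 was higher, where 15.5% of all tested genes were lower and 15.2% higher. DCP2, the decapping enzyme, was the only DEG and rose from 26.5 ± 1.15 to 43.2 ± 0.618 CPM (SD, n = 3 each), by 0.70 on the log2 scale (edgeR adjusted p = 1.16e-08). TIA1, which represses translation of AU-rich mRNAs, fell by 0.28 (edgeR adjusted p = 0.000111). ZFP36L1, which recruits deadenylases, fell by 0.21 (edgeR adjusted p = 0.00079) and HNRNPD (AUF1) by 0.12 (edgeR adjusted p = 0.0023).

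Of 18 tested secreted factors of other kinds that attract or feed myeloid cells, 11 were lower, 1 was higher and 6 did not pass, with a median log2 fold change of −0.36, and 4 were DEGs, all lower, LIF among them. Of all tested genes 15.5% were lower, 15.2% higher and 1.69% lower DEGs. LIF reached the filter on low counts in all 3 libraries only in si_NC, where it was higher. The counts of lower genes and of DEGs hold LIF and are not read against these shares. SAA1 (serum amyloid A, a leukocyte attractant) fell from 6.32 ± 0.159 to 3.10 ± 0.251 CPM (SD, n = 3 each), by 1.02 on the log2 scale (edgeR adjusted p = 1.3e-05). Its near copy SAA2 could share reads, so the value is uncertain. TNF, an inducer of CCL2 and CCL20, fell from 3.61 ± 0.254 to 1.92 ± 0.291 CPM, by 0.91 (edgeR adjusted p = 0.000497). TGFB2 fell by 0.59 (edgeR adjusted p = 0.000497).

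IL11 fell by 0.66 (edgeR adjusted p = 0.0195), a call lost without si_NC replicate 2, si_GRB2 replicate 1 or si_GRB2 replicate 3 (0.0517 to 0.0711). LIF, a cytokine of the interleukin 6 family, had 1.51 ± 0.618 and 0.434 ± 0.0761 CPM, and only in si_NC did all 3 libraries reach the filter on low counts. It fell by 1.79 in the fit without that filter (edgeR adjusted p = 2.57e-08). VEGFC, a growth factor of lymphatic vessels, was the 1 higher gene, at 0.44 (edgeR adjusted p = 0.032), and lost its call in 4 of the 6 fits with a library left out, those without si_NC replicates 2 or 3 and si_GRB2 replicates 2 or 3 (0.0621 to 0.116). LIF and VEGFC were named after their values were seen. DESeq2 called 7 genes of this list in all, against 12.

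**Figure D4:**
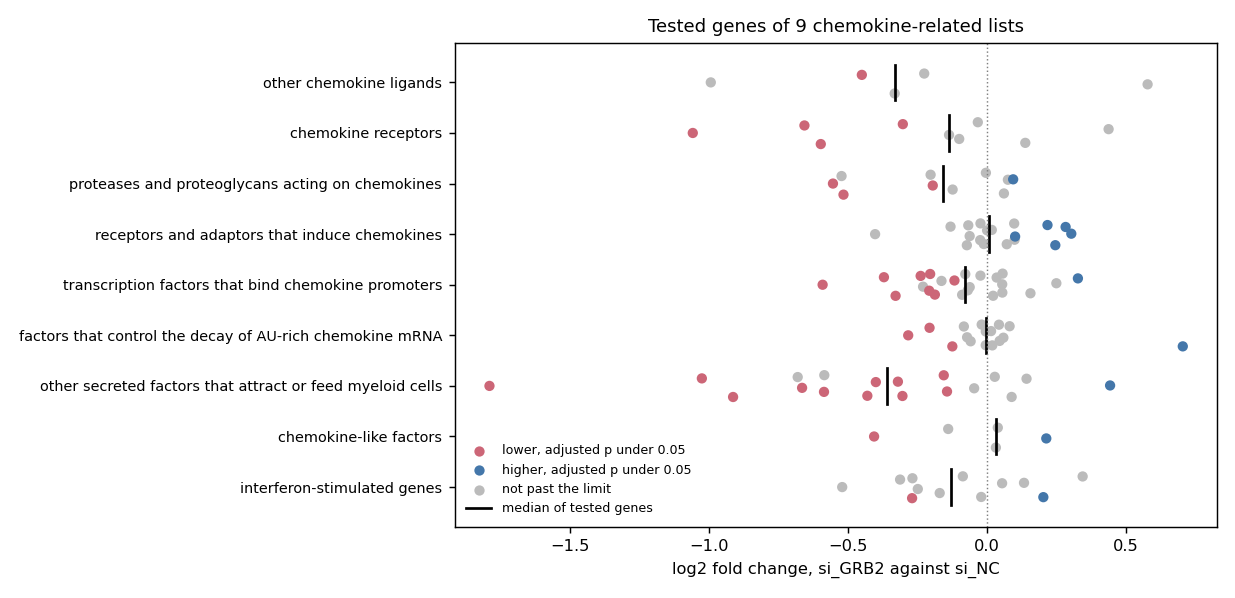
Log2 fold change of si_GRB2 against si_NC (horizontal axis) for the tested genes of the 9 lists, 1 point a gene, coloured by direction where the adjusted p was under 0.05, with a bar for the median of each list. The list of other secreted factors has its median at −0.36, and that of receptors and adaptors at 0.01.

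The genes whose profile over the 6 libraries was most like that of CCL2 were S100A10, PSCA, TMEM50A, ADAM19 and MT2A. Likeness was the root mean square difference of log2 CPM profiles, each centred on its own mean, among 10623 tested genes with a mean of at least 5 CPM, and it was 0.09, 0.10, 0.14, 0.15 and 0.19. In order, these encode the partner of annexin A2, a GPI-anchored surface protein, a membrane protein, a membrane metalloprotease and a metallothionein. Their mean levels went from 278 to 97.9 CPM for S100A10, from 23.5 to 7.58 CPM for PSCA and from 90.7 to 25.4 CPM for TMEM50A. ADAM19 went from 18.7 to 7.35 CPM and MT2A from 55.8 to 22.9 CPM. They were found by the same contrast as CCL2, so no test is given, and with 2 groups of 3 libraries the measure mostly picks genes with a fall of the same size.

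Few genes near the members could be compared. Within 500000 bases on either side of CCL2, 4 genes had counts and none had enough reads to test, so whether its neighbours changed was not tested. Around CCL20, 4 genes were tested, of which 1 was lower and none was a DEG. Around CXCL16, 34 genes were tested, 4 lower and 7 higher, with a median log2 fold change of 0.05, where 15.5% of all tested genes were lower and 15.2% higher.

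Markers of cells that could carry chemokine mRNA into a culture were given beside these results. Of the 9 macrophage and monocyte markers, 7 had a row and 3 were tested. They summed to 63.7 to 65.4 CPM in si_NC and 54.0 to 57.8 CPM in si_GRB2, nearly all of it CSF1R (62.7 and 54.3 CPM), while PTPRC and TYROBP had 2 reads each in all. The 5 lymphocyte markers with a row summed to 0.856 to 1.21 CPM and 0.514 to 0.765 CPM, and CD3D had 1 read in all. The 9 fibroblast markers summed to 6.16 to 7.99 CPM and 5.09 to 6.08 CPM, mostly COL1A1 (4.50 and 4.57 CPM) and ACTA2 (1.72 and 0.690 CPM), with LUM at 1 read and DCN and PDGFRA at 2 reads each. ACTA2 fell by 1.31 on the log2 scale (edgeR adjusted p = 0.00192), and COL1A1 did not pass (0.932). The 5 endothelial markers with a row summed to 29.0 to 30.9 CPM and 17.5 to 21.4 CPM, nearly all of it CDH5 (28.4 and 18.5 CPM), with PECAM1 at 3 reads and CLDN5 at 2 reads. CSF1R, ACTA2 and CDH5 fell with CCL2, and their part in its change was not tested.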

How the data were processed

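RNA of 3 si_NC and 3 si_GRB2 libraries was analysed. The authors trimmed reads with FASTX-Toolkit and aligned them with HISAT2 (build GRCh38), and only reads with a unique position were used. The deposited tables give the raw count per gene and, for 29912 genes, FPKM computed by the authors. The counting tool, its use of strand and its annotation are not given in the sources used here. Counts were tested with the quasi-likelihood method of edgeR 4.0.16 in R 4.3.3, after TMM normalization and filterByExpr (minimum count 10, leaving 15801 genes), and p-values were adjusted by Benjamini-Hochberg over all genes tested. A standard error is the log2 fold change over the root of its F statistic. The precision of genes with few reads is low, and exact intervals (95%) of ratios of summed reads cover counting error only.

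The members and the gene lists were chosen with earlier results of these data known. Named genes were the members, GRB2, the 5 genes most like CCL2 and, from each list, up to 4 called genes with the largest change and a mean of at least 1 CPM. Nothing in the labels says that libraries came from separate cultures, so p-values measure the spread between these libraries, which may be technical. The labels do not say which siRNA against GRB2 was used. Of 30327 gene identifiers, 30246 were found in GENCODE 44, ignoring versions. Results were recomputed with DESeq2 1.42.0, with its size factors or plain library totals in edgeR, under other filters, robustly, with replicate number as a block, with limma 3.58.1 on log2(FPKM + 1) or log2(FPKM + 0.1), and without each library. The edgeR test was tried on simulated data, where it called 76% of genes simulated at 2-fold. It called 100% of 96 genes of at least 5 CPM that changed 2-fold or more. Under 1 CPM it called 11.8% of 17 genes changed 2-fold, so at that level a gene that did not pass may still have changed. Python 3.11.15 with Biopython 1.88, pandas 2.3.3 and matplotlib 3.10.9 made the other tables and the figures.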

Additional observations from a re-analysis of the deposited data

How the results depend on the processing

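No named gene whose fit was repeated changed direction under any alternative that gave it a value. CCR2 and the cell type markers were not repeated under the alternatives. With limma on FPKM, the log2 fold change of CCL2 was −1.19 with a pseudocount of 1 (also among genes with a mean of at least 1 FPKM) and −1.54 with 0.1, since a pseudocount shrinks low genes, and with a library left out it ran from −1.68 to −1.57. For CCL28 it was −0.90 in DESeq2, −0.15 and −0.63 in limma with pseudocounts of 1 and 0.1, and from −1.48 to −0.66 with a library left out. CCL20 was let into the filtered fit only through si_NC, so counts of members that passed are not read as support. The number of members besides CCL2 that passed was 2 in edgeR and 0 in DESeq2, where 2 had an unadjusted p under 0.05 and CCL20 had no adjusted p. It was 1 with at least 10 counts in every library, which leaves out CCL20, 1 in limma with either pseudocount, 0 in limma among genes with a mean of at least 1 FPKM, where CXCL16 alone remained (unadjusted p under 0.05 for 1), and 1 to 2 with a library left out.

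Of 116 tested genes on the 9 lists, 32 were lower (27.6%) and 11 higher (9.48%), beside 15.5% and 15.2% of all tested genes. The lower ones hold CXCR4 and LIF, which passed the filter on low counts only through si_NC. Their share is therefore not read against that of all tested genes. In limma 20, 21 and 19 were lower (pseudocounts of 1 and 0.1, and the filter of 1 FPKM), and with library totals 18 were higher. With a library left out, 25 to 29 were lower and 8 to 12 higher. Calls among receptors fell from 4 to 2 in DESeq2, without a filter and in limma with the filter, and to 2 to 3 with a library left out. Those among proteases and proteoglycans fell from 4 to 1, 1 and 2 in the 3 limma fits, those among decay factors from 4 to 2 in each, and those among interferon-stimulated genes from 2 to 1 in each. With a library left out these were 2 to 4, 4 and 1 to 3. Calls among other ligands were 1 to 2, and among other secreted factors 7 in DESeq2, against 12. The cause of these shifts was not tested.

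Of all edgeR calls 50.5% were lower, but 33.5% with library totals and 38.3%, 38.4% and 36.8% in the 3 limma fits. Library totals moved the median log2 fold change of all genes to 0.05. Same-numbered libraries did not deviate together in every pair (correlations 0.23, −0.09 and 0.08). With 3 libraries per group such a check cannot exclude a pairing. The main fit did not pair libraries by number. With the replicate block the log2 fold changes of CCL20, CCL28 and CXCL16 were −1.64, −0.93 and −0.22. Their edgeR adjusted p-values were 0.000422, 0.0051 and 0.0785, and that of CCL20 is not read as support, since the same filter let it in. The block fit called 4807 genes against 4838. Depth limits CXCL1, CXCL2 and CXCL8, with 46, 19 and 17 reads in all.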

Other observations

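Interferon-stimulated genes and chemokine-like factors showed no common direction. Of 12 tested interferon-stimulated genes, 1 was lower and 1 was higher at an edgeR adjusted p under 0.05, with a median log2 fold change of −0.13, where 15.5% of all tested genes were lower and 15.2% higher. IFIH1, a cytosolic sensor of double-stranded RNA, rose from 22.6 ± 0.856 to 26.0 ± 0.343 CPM (SD, n = 3 each), by 0.20 on the log2 scale (edgeR adjusted p = 0.00631). OAS3, an oligoadenylate synthetase, had a log2 fold change of −0.27 (edgeR adjusted p = 0.0131), a call lost without si_NC replicate 2, si_GRB2 replicate 1 or si_GRB2 replicate 3 (0.0503 to 0.0629).

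Among 5 tested chemokine-like factors, which are named for CKLF and mostly span the membrane, 1 was lower and 1 was higher, beside the same shares of all tested genes. CKLF, reported to attract leukocytes, fell from 12.9 ± 1.05 to 9.73 ± 0.214 CPM (SD, n = 3 each), by 0.41 (edgeR adjusted p = 0.00128). CMTM6, which stabilizes PD-L1 at the cell surface, rose from 38.8 ± 0.759 to 45.0 ± 2.22 CPM, by 0.21 (edgeR adjusted p = 0.00183).

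Of 949 tested coding genes with the AU-rich nonamer in the 3′ UTR, 13.9% were lower and 22.3% higher in si_GRB2, against 18.2% and 17.6% of 11736 genes without it. The median 3′ UTR was 3275 bases in the first group and 1187 bases in the second, and genes are not replicates, so these are shares with no test. When genes with a mean of at least 1 CPM were also compared with CCL2, 4 of the 5 most like genes were the same, and TFPI2, an inhibitor of serine proteases that went from 5.13 to 1.87 CPM, took the place of MT2A.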
